A study of Mus musculus with 2 samples.

Results

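The miR-181 family was measured by 3 probes of the 420 miRNA probes counted in extracellular vesicles (EVs), the membrane particles that cells shed into their medium. These were all probes whose name begins with miR-181 and a letter from a to d: miR-181a (rno-miR-181a in the files), a single probe shared by miR-181b and miR-181d, and miR-181c. The EVs came from primary cortical astrocytes of GFAP-EGFP mice, taken at postnatal day 1, in which a fluorescent protein is expressed from the promoter of the astrocyte gene GFAP. One preparation was from cells given the inflammatory cytokine IL-1β at 200 ng per ml, with the medium collected after 2 h, and the other was from cells given no treatment, with all particles of 24 h collected. Treatment and collection time therefore cannot be told apart. Per the labels' protocols the cultures were 98% GFAP-positive, were used at passages 3 to 10, and 8 to 10 flasks were pooled for a stimulated preparation. With 1 sample per group there was no replicate to set a difference against, so no p-value is given and each ratio compares these 2 preparations only.

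A microRNA (miRNA) is a short RNA that guides the silencing complex to messenger RNAs, mainly through its seed, the bases near its 5′ end. The miR-181 family is conserved among vertebrates and abundant in brain and in developing lymphocytes, where miR-181a tunes the sensitivity of the T cell receptor. In astrocyte cultures, members of the family have been reported to target messages of cell survival proteins, among them members of the Bcl-2 family and the endoplasmic reticulum chaperone GRP78, and to affect cytokine production.

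The 4 mature RNAs of the 5p arm are shown because they decide what each probe could tell apart. The sequences are the mouse ones of RefSeq on build GRCm38.p6, 5′ to 3′, with the seed (bases 2 to 8) in capitals. The probes were designed for rat.
miR-181a-5p: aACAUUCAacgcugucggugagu
miR-181b-5p: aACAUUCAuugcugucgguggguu
miR-181c-5p: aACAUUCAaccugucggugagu
miR-181d-5p: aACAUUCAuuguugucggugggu
All 4 had the seed ACAUUCA, and no other mature miRNA among the 1679 names in the table had it. Counted from 1 at the 5′ end, miR-181c-5p equals miR-181a-5p with the G at position 11 removed. From miR-181a-5p to miR-181b-5p the changes were A9U, C10U and A21G, with 1 more base at the 3′ end. From miR-181b-5p to miR-181d-5p there was 1 substitution, C12U, and 1 base fewer at the 3′ end, and the code set counted these miRNAs with a single probe.

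The 4 RNAs come from 6 mouse genes in 3 pairs, each pair on 1 strand. The gene Mir181a-1 gives miR-181a-5p at chr1:137966468-137966490 on the plus strand, and Mir181b-1 gives miR-181b-5p at chr1:137966650-137966673, 182 bases further along. Mir181a-2 gives the same miR-181a-5p at chr2:38852741-38852763 on the plus strand, and Mir181b-2 gives miR-181b-5p at chr2:38853845-38853868, 1104 bases further along. Both chromosome 2 genes lie within the annotated spans of Nr6a1, which encodes an orphan nuclear receptor, and Nr6a1os, its antisense transcript. Mir181c and Mir181d lie on the minus strand at chr8:84178924-84178945 and chr8:84178759-84178781 (mature 5p arms), 164 bases apart, and the annotation table lists no gene overlapping them.

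The family's clusters could therefore not be compared fully. The miR-181a probe read the product of 2 genes on different chromosomes, and the shared probe read 3 genes from all 3 pairs. Only the miR-181c probe belonged to 1 gene. The other arm of the hairpins had 0 probes. That arm would have told the miR-181a genes apart, since their 3p products differ in sequence.
miR-181a-1-3p: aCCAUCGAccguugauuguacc
miR-181a-2-3p: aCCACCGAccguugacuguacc

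RNA was counted with the NanoString nCounter assay, in which ligated small RNAs are hybridised to colour-coded reporters and counted singly, and the values below are raw reporter counts unless stated. The miRNA probes summed to 13514 counts in the IL-1β preparation and 16812 in the control preparation, and the 8 negative controls ranged from 0 to 10 and from 1 to 5 counts. The background threshold was the negative controls' mean + 2 SD, which came to 9.67 counts in the IL-1β preparation and 6.41 in the control preparation. It was passed by 146 and 185 probes, 139 of them in both samples. Among those that passed were 41 and 49 of the 69 probes whose number no mouse miRNA gene shares, so a count just above the threshold does not by itself show that a miRNA was present. The 6 positive controls had a geometric mean of 151 counts in the IL-1β lane and 100.4 in the control lane. The code set also had probes for 4 mRNAs, with 39568 counts in all for IL-1β and 1175 for the control, and their part in the results below was not tested.

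miR-181a was the one member above background in both preparations, and it was among the most counted miRNAs of control EVs. It gave 244 counts in the IL-1β preparation (95% exact Poisson interval 214 to 277) and 792 in the control preparation (738 to 849). The intervals do not overlap and the control count is the higher. As a share of all miRNA counts, miR-181a made up 1.81% in the IL-1β preparation (95% exact binomial interval 1.59 to 2.04) and 4.71% in the control preparation (4.40 to 5.04). It ranked 12th of the 420 probes in the IL-1β preparation and 3rd in the control preparation. These intervals and those that follow cover counting error only.

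The shared probe of miR-181b and miR-181d was at background in both preparations. It gave 2 counts in the IL-1β preparation (0.242 to 7.22) and 5 in the control preparation (1.62 to 11.7), within the range of the negative controls of the same lane in both cases. In control EVs 203 of the 420 probes had more counts. Each of the 2 genes of miR-181a has a gene of miR-181b as its neighbour, so the most and the least counted probes of the family read products of the same gene pairs.

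The miR-181c probe was just above background in the control preparation only. It gave 8 counts there (3.45 to 15.8), against a highest negative control of 5, and 5 counts in the IL-1β preparation (1.62 to 11.7), where a negative control reached 10. The control count also passed a threshold of mean + 3 SD, which stood at 7.99. The 69 probes whose number no mouse miRNA gene shares gave another comparison for low counts. They were set apart by number and not by sequence, so they need not be free of mouse targets. Their median was 15 counts in the IL-1β preparation and 13 in the control preparation, beside 5 over all 420 probes in each. Of the 69, 46 had more than 8 counts in the control preparation and 49 had more than 5 in the IL-1β preparation. The miR-181c counts thus lay below most probes of this set, whose median was above that of all probes. By the same measure, miR-181a exceeded all 69 in the control preparation, where the highest had 238 counts. In IL-1β EVs it was exceeded by 1 of them, miR-3583-3p with 270 counts.

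**Figure D1:**
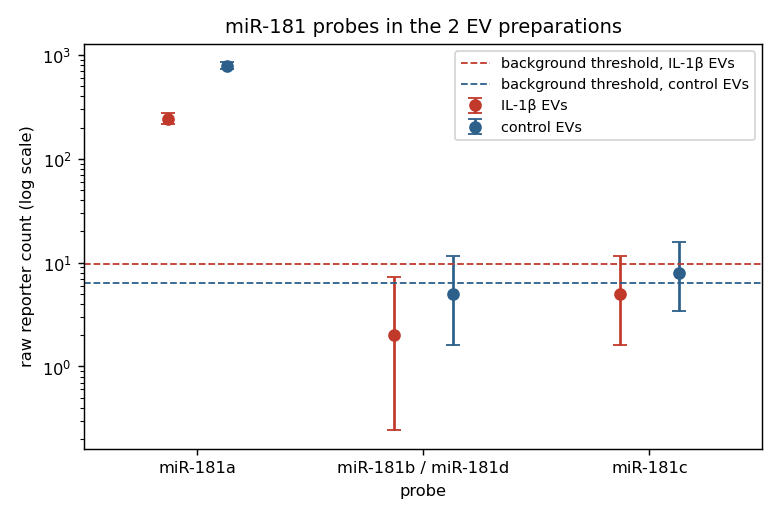
Raw reporter counts (vertical axis, log scale) of the 3 miR-181 probes in the IL-1β preparation (red) and control EVs (blue), 1 preparation each; bars are 95% exact Poisson intervals and dashed lines the background thresholds of 9.67 and 6.41 counts. miR-181a stands at 244 and 792 counts, far above both lines, while every interval of the other probes reaches a threshold or lies below it.

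Of the family's counts, miR-181a held 97.2% in the IL-1β preparation (94.3 to 98.9) and 98.4% in the control preparation (97.3 to 99.1). The miR-181c probe read 1.01% of the miR-181a count in the control preparation and 2.05% in the IL-1β preparation, although the mature RNAs differ by 1 base. The shared probe read 0.631% and 0.820%. These percentages are the most that miR-181a could have added to its relatives' probes by cross-hybridisation in these lanes. Probes can differ in how efficiently they capture and count their target, so the percentages do not give the molar shares of the miRNAs.

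To compare the preparations, the geometric mean over the 100 most counted miRNA probes was set equal, which divided the IL-1β counts by 0.875. On this scale miR-181a was 2.84-fold lower in the IL-1β preparation (95% exact binomial interval 2.46 to 3.29), a log2 ratio of -1.51. A probe was called where the difference, or its bound against the background threshold, reached 2-fold and the interval excluded 1. Among the 160 probes with a ratio or a bound, 15 were called lower, 9.38%, and 9 higher, 5.62%. miR-181a, the 1 member of 3 with a ratio, was among those lower.

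For the other members no fold is given, because at least 1 of the counts was below background. The interval of the scaled ratio was 0.0435 to 2.79 for the shared miR-181b and miR-181d probe and 0.184 to 2.48 for miR-181c, each of which holds both 1 and the miR-181a ratio of 0.352 (0.304 to 0.407). Relative to miR-181a, a comparison that no scaling can move, the shared probe's ratio was 1.30 times that of miR-181a (exact conditional interval 0.123 to 7.99). That of miR-181c was 2.03 times (0.517 to 7.10). A difference between members in how they changed was not detectable at this depth.

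**Figure D2:**
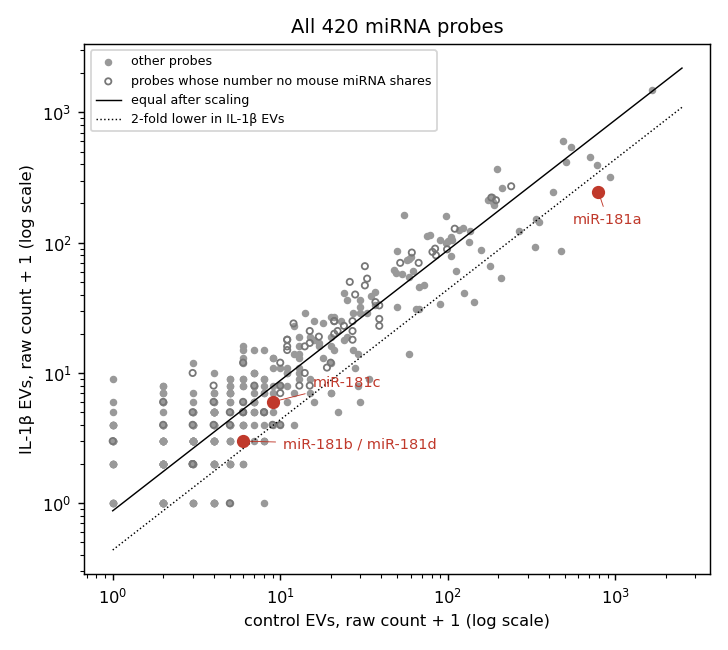
Raw count + 1 of each of the 420 miRNA probes in the control preparation (horizontal axis) and IL-1β EVs (vertical axis), both log scales, 1 preparation each. The solid line marks equal values after scaling and the dotted line a 2-fold lower value in the IL-1β preparation; open circles are probes whose number no mouse miRNA gene shares. miR-181a lies below the dotted line at high counts, and the other miR-181 probes (red) lie in the low cloud.

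Among the 139 probes above background in both preparations, 5 had a lower ratio than miR-181a: miR-100, miR-30c, miR-204, miR-132 and miR-1224, the lowest. The median log2 ratio was 0.19 over the 99 of these 139 probes whose number a mouse miRNA gene shares, and 0.27 over all 139. Of the 36 with a mean count of at least 100, 3 had a lower ratio. In raw counts miR-181a had 548 fewer in the IL-1β preparation, the 2nd largest decrease of any probe, after miR-22, and this was 11.2% of the summed decreases of all probes with fewer counts there.

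The ratio of miR-181a to another probe in the same lane cancels any scaling. Set in turn against the 138 other probes above background in both preparations, miR-181a was lower relative to 120 of them in the IL-1β preparation, with an interval below 1. For 17 the interval held 1, and for 1, miR-1224, it lay above 1 (1.69, interval 1.28 to 2.25). The 138 include probes whose number no mouse miRNA gene shares. Among the 98 whose number one does share, the interval lay below 1 for 82, held 1 for 15 and lay above 1 for 1. All these comparisons share the same miR-181a counts and are not independent of each other. Against miR-125b-5p, a brain-abundant miRNA with the highest count in both lanes, miR-181a stood at 0.477 in the control preparation and 0.165 in the IL-1β preparation, a ratio of ratios of 0.346 (0.294 to 0.407). Against let-7b, a member of the growth-inhibiting let-7 family, it stood at 1.12 and 0.537, so that in raw counts the order of these probes changed between the preparations.

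**Figure D3:**
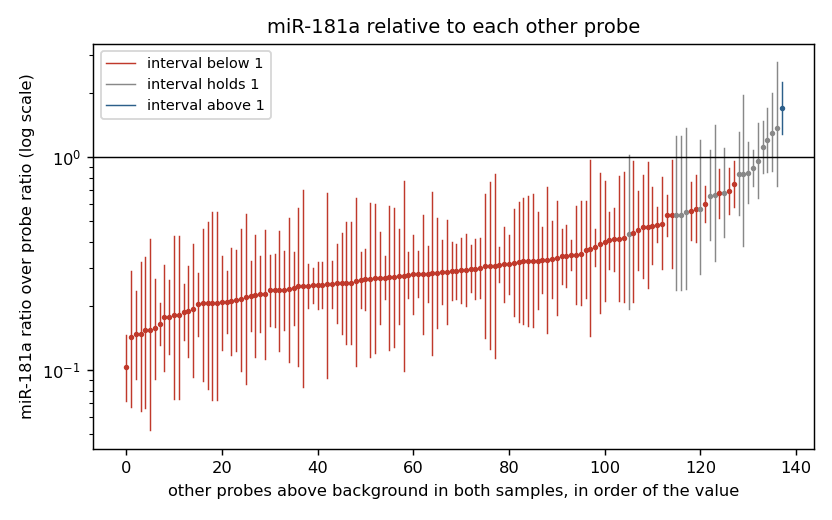
Ratio of miR-181a (IL-1β over control EVs) divided by the ratio of each of the 138 other probes above background in both samples (vertical axis, log scale), ordered along the horizontal axis; lines are exact conditional 95% intervals of the counts. The interval lay below 1 for 120 probes (red), held 1 for 17 (grey) and lay above 1 for 1 (blue).

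The probes with the most similar ratio, among those with a mean count of at least 50, were miR-27b, miR-100 and miR-22. Likeness was measured as the absolute difference of log2 ratios over the 2 samples. miR-27b, a product of the miR-23b cluster, gave 40 counts in the IL-1β preparation and 124 in the control preparation and differed from miR-181a by 0.07. miR-100, a relative of miR-99a, gave 91 and 329 counts and differed by 0.16. miR-22, a broadly expressed miRNA, gave 319 and 923 counts and differed by 0.17. These probes were picked for their closeness in ratio, so the closeness itself is a description.

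The probes nearest to miR-181a in control count were miR-145, let-7b and miR-22. miR-145, a miRNA of smooth muscle and other mural cells, gave 397 and 775 counts. Its control count was 17 below that of miR-181a, while its IL-1β count was the higher of the pair. The miR-181a ratio was 0.602 times that of miR-145 (0.496 to 0.729) and 0.481 times that of let-7b (0.397 to 0.581). Of these 3 neighbours at a similar control level, miR-22 alone, which was also picked for its ratio, had an interval that held 1 (0.732 to 1.08).

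Other miRNAs known from astrocytes and from inflammation give the setting. Of 15 miRNAs abundant in astrocytes, 14 were above background in both preparations, 5 were called lower and 1 higher, beside 9.38% lower and 5.62% higher among all probes with a ratio or bound. The list's median log2 ratio was -0.82, beside 0.27 over all probes above background in both samples. Over the 36 of those probes with a mean count of at least 100 it was 0.17. The list was chosen with earlier results of these data known, so its median is a description. The called members were miR-22, miR-27a, miR-27b, miR-30c and miR-100 on the lower side and let-7c on the higher side. miR-100 and miR-30c, at 3.16-fold and 3.40-fold lower, had a lower ratio than miR-181a. Of 10 inflammation-responsive names, 9 had a probe and 6 a ratio or bound. The 1 call among them was miR-132, a miRNA of neuronal activity and inflammatory signalling, which was 3.91-fold lower (ratio interval 0.129 to 0.473). It gave 13 counts in the IL-1β preparation, near the threshold of 9.67, and 58 in the control preparation. This 1 of 6 is to be read beside the 9.38% of all probes called lower. miR-146a, which is induced by NF-κB and damps inflammatory signalling, gave 3 and 5 counts, below background in both preparations.

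The miR-181 family is also abundant in lymphocytes and neurons, so markers of other cells are given beside it. The 3 neuron probes (miR-124, miR-128, miR-129) summed to 6 counts in the IL-1β preparation and 8 in the control preparation, none above background. The 4 microglia and leukocyte probes summed to 23 and 26 counts. Of these, miR-142-3p was above background in both samples with 10 and 12 counts, miR-142-5p in the control alone with 6 and 11, and miR-150, a miRNA of mature lymphocytes, was at 3 and 0. The 4 oligodendrocyte probes summed to 13 and 14 counts, with miR-219-5p above background in the control alone at 8. miR-126 of endothelium gave 7 and 10, above background in the control alone, and the 2 erythroid probes summed to 8 and 7. The 5 mural and fibroblast probes, among them miR-145, had higher counts, 843 and 1465 in sum. They did not all go together, since miR-145 gave 397 and 775 counts while miR-143 was below background in both preparations at 3 and 4. Of the 4 with a ratio, 3 were below 1 as miR-181a was, with a median log2 ratio of -0.63 over the 4 and 0 calls, and their part in its ratio was not tested.

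The miR-181a ratio stayed below 0.5 with each of the scalings applied to the raw counts. It was 0.383 with the total miRNA count, 0.308 with none, 0.291 with the median ratio, 0.276 with the probes that no mouse miRNA gene shares a number with, and 0.204 with the positive controls (0.176 to 0.236). Leaving the miR-181 probes out of the 100 scaling probes gave 0.350.

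**Figure D4:**
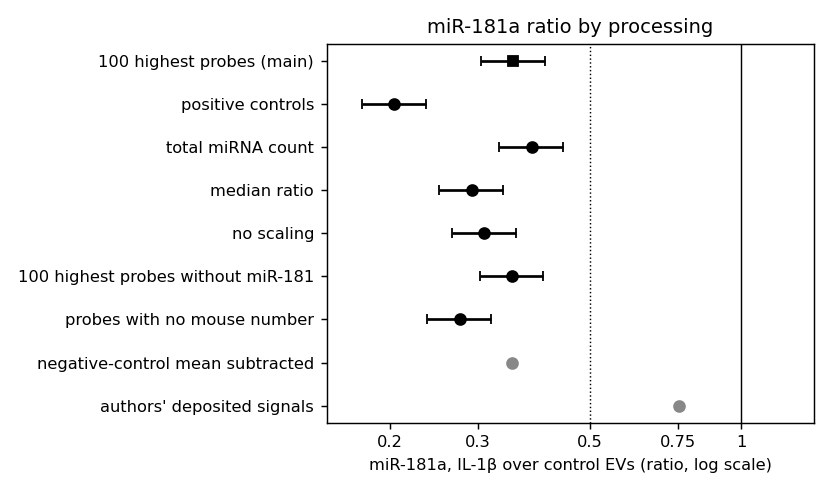
Ratio of miR-181a in IL-1β over control EVs (horizontal axis, log scale) under each scaling of the raw counts, with 95% exact binomial intervals, and, in grey with no interval, after background subtraction and from the authors' deposited signals. The raw counts gave 0.204 to 0.383, left of the dotted line at 0.5, and the deposited signals 0.753; the solid line marks 1.

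The authors' deposited table of normalized signals lists 124 miRNAs, and miR-181a is the 1 miR-181 probe among them. In the authors' deposited table miR-181a had a signal of 2878 in the IL-1β preparation and 3823 in the control preparation, and the table's own ratio is 0.75. In that table it was the highest signal in the control preparation and the 2nd highest in the IL-1β preparation, after miR-125b-5p. Of the 119 miRNAs with both deposited signals, 35 (29.4%) had a lower ratio than miR-181a, the median ratio was 0.883, and 10 (8.40%) were at least 2-fold lower, without miR-181a.

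The signal columns of the authors' deposited table had similar values at the highest ranks. The highest signal was 3823.2 in both columns, held by miR-181a in the control and by miR-125b-5p in the IL-1β preparation, and the 2nd highest was 2916 in the control and 2878 in the IL-1β preparation. Over the first 50 ranks the columns differed by a median of 4.79% and at most 14.8% at the same rank, and over all 119 shared ranks by up to 56.3%. For miR-181a the ratio from the table is the step from the 1st to the 2nd rank, 0.753 in the IL-1β column. The raw counts of the same probe moved from rank 3 to rank 12. Against miR-125b-5p, the authors' deposited signals put miR-181a at 1.58 in the control preparation and 0.753 in the IL-1β preparation. The direction of change was that of the raw counts. The order in the control preparation was not, since the raw counts put miR-181a at 0.477 of miR-125b-5p there. Against miR-22 they put it at 1.31 and 1.36, where the raw counts put it at 0.858 in the control preparation and 0.765 in the IL-1β preparation. For miR-22 the order of the probes and the direction of change thus differed from the raw counts, whose interval held 1 (0.732 to 1.08). Against let-7b the deposited signals put miR-181a at 2.01 in the control and 1.69 in the IL-1β preparation. Against miR-145 they put it at 4.46 and 2.49. Both were lower in the IL-1β preparation as in the raw counts, but the change of order seen in the raw counts was absent. The deposited signal per raw count of miR-181a was 4.83 in the control and 11.8 in the IL-1β preparation. These values are for miR-181a alone and are not a scale for the whole lane, since the order of probes within a lane differed from the raw counts. The normalization method is not stated in any label or header.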

How the data were processed

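Per the file headers, each raw file holds the reporter counts of 1 nCounter lane with a rat miRNA code set, with no normalization. The authors also deposited normalized signals with a ratio of IL-1β over control, whose method no label or header states. The lanes had 1139 (IL-1β) and 1121 (control) countable fields of view out of 1150, and binding densities of 0.18 and 0.13, per the file headers. Per the labels' protocols, EVs were pelleted at 100000 g for 3 h after a spin at 10000 g. From the counts, ratios, exact intervals at 95% confidence (Poisson for counts, Clopper-Pearson for shares and ratios, conditional odds ratios between probes) and calls were computed in Python 3.11.15 with scipy 1.17.1, with no background subtraction. The calling step was tested on simulated counts that held counting error only, so that test does not cover variation between preparations. Every miR-181 probe is named, with the 3 probes nearest in log2 ratio and the 3 nearest in control count. A probe counted as having no mouse counterpart where its number occurs in no mouse miRNA gene of RefSeq (GRCm38.p6), with no comparison of sequences. Sequences were matched by name for all 4 miRNAs of the 5p arm. The members and lists were chosen with earlier results of these data known.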

Additional observations from a re-analysis of the deposited data

How the results depend on the processing

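No paired analysis was possible because each group held 1 sample, and no replicate could be left out. The miR-181a ratio was below 1 in every alternative run. From 0.352 it moved beyond its counting interval to 0.204 with positive-control scaling, 0.291 with the median ratio, 0.276 with probes that have no mouse counterpart (added after seeing the data) and 0.753 with the deposited signals, which ended the 2-fold difference. The background threshold and subtraction left it within the interval. The count of 15 probes called lower and 9 higher became 46 and 0 with positive controls, 14 and 15 with the total count, 24 and 2 with the median ratio, 21 and 4 with no scaling, and 27 and 1 with probes that have no mouse counterpart. It became 26 and 19 at a 1.5-fold minimum and 1 and 0 at 4-fold. With the negative-control mean subtracted, the miR-181c ratio relative to miR-181a was 1.29. The shared miR-181b and miR-181d probe gave no value there, since its IL-1β count fell below 0. Depth limits those probes, whose counts were at or near the negative controls. The intervals hold no variation between preparations.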
